A study of Mus musculus with 5 samples.

Results

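Genes that mark the epicardium were examined in newborn mouse atria with a conditional deletion of Nkx2-5, a cardiac transcription factor gene. The group held 10 genes, chosen by symbol from the 40624 genes of the count table: the transcription factor genes Wt1 and Bnc1, the keratin genes Krt7, Krt8, Krt18 and Krt19, the uroplakin genes Upk1b and Upk3b, and the surface protein genes Msln and Lrrn4. All 10 symbols were found once in the table, and all 10 passed the filter on low counts. The study compared 2 libraries of mutant atria (SLN-Cre; Nkx2-5-flox/flox, replicates 5 and 7) with 3 libraries of control atria (SLN-Cre; Nkx2-5-flox/+, replicates 2, 4 and 6), all from C57BL/6 mice at postnatal day 1. Both groups carried the Cre and at least 1 floxed allele, so they differed in the second Nkx2-5 allele. The Cre is driven by Sln, the gene of sarcolipin, a calcium pump inhibitor of atrial myocytes; its activity in other cells was not measured here. The labels do not state whether a library came from 1 animal or a pool, nor the sex of the animals, and the p-values below therefore reflect only how far these libraries scatter.

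The epicardium is the mesothelial sheet on the outer surface of the heart. Like the linings of the other body cavities it is an epithelium of mesodermal origin, and it contains the simple keratins 7, 8, 18 and 19, the glycoprotein mesothelin and uroplakins best known from the bladder lining. In the embryo, epicardial cells delaminate and give rise to fibroblasts and mural cells of the heart, and Wt1 takes part in that step.

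Mutants 5 and 7 held 78.8 and 69.6 M gene counts, against 58.5, 58.9 and 60.9 M in controls 2, 4 and 6, so the mutants were sequenced deeper. Nkx2-5 averaged 5.50 ± 0.41 CPM in mutant atria (SD, n = 2) and 73.4 ± 2.95 CPM in control atria (SD, n = 3). Levels are given as CPM, edgeR's depth-scaled counts, with library totals adjusted by the trimmed mean of M-values (TMM). The atrial myocyte genes Myl7, Myl4 and Sln were present at 528 CPM or more in every library, as the tissue label says. The lung, thymus and other epithelial list, fixed as a check on neighbouring tissue, summed to 1.92 and 2.39 CPM in mutants 5 and 7 and to 2.83, 2.15 and 3.30 CPM in controls 2, 4 and 6. Of its 11 genes 5 passed the low-count filter, and Epcam, an epithelial adhesion gene that mesothelium largely lacks, stood at no more than 0.17 CPM in any library. Cdh1, with the smallest p of that list, stood at 0.32 and 0.35 CPM in mutants 5 and 7. Controls 2, 4 and 6 had 0.61, 0.87 and 1.14 CPM of Cdh1. It did not pass the edgeR test described below (adjusted p = 0.065).

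Expression of the epicardial genes was lower in mutant atria. Of the 10 genes, 8 fell in the quasi-likelihood test of edgeR, where a call needed a Benjamini-Hochberg adjusted p under 0.05 over all 17835 tested genes; 2, Krt7 and Wt1, did not pass. Across all tested genes, 3.57% were called lower in mutant atria and 3.02% higher; none of the 10 had a positive log2 fold change. All 10 had both mutant libraries below all 3 control libraries, as did 19.2% of all tested genes. The median log2 fold change, mutant over control, was -0.59 over the 10 genes and 0.01 over all tested genes. Summed over the 10 genes, the level was 828 ± 1.98 CPM in mutant atria (SD, n = 2) and 1318 ± 104 CPM in control atria (SD, n = 3), which put the mutant sum at 62.9% of the control sum. These levels are relative to the other RNAs of each library. In this tissue extract, fewer epicardial cells, less of these RNAs per cell and more RNA from other cells cannot be told apart.

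**Figure D1:**
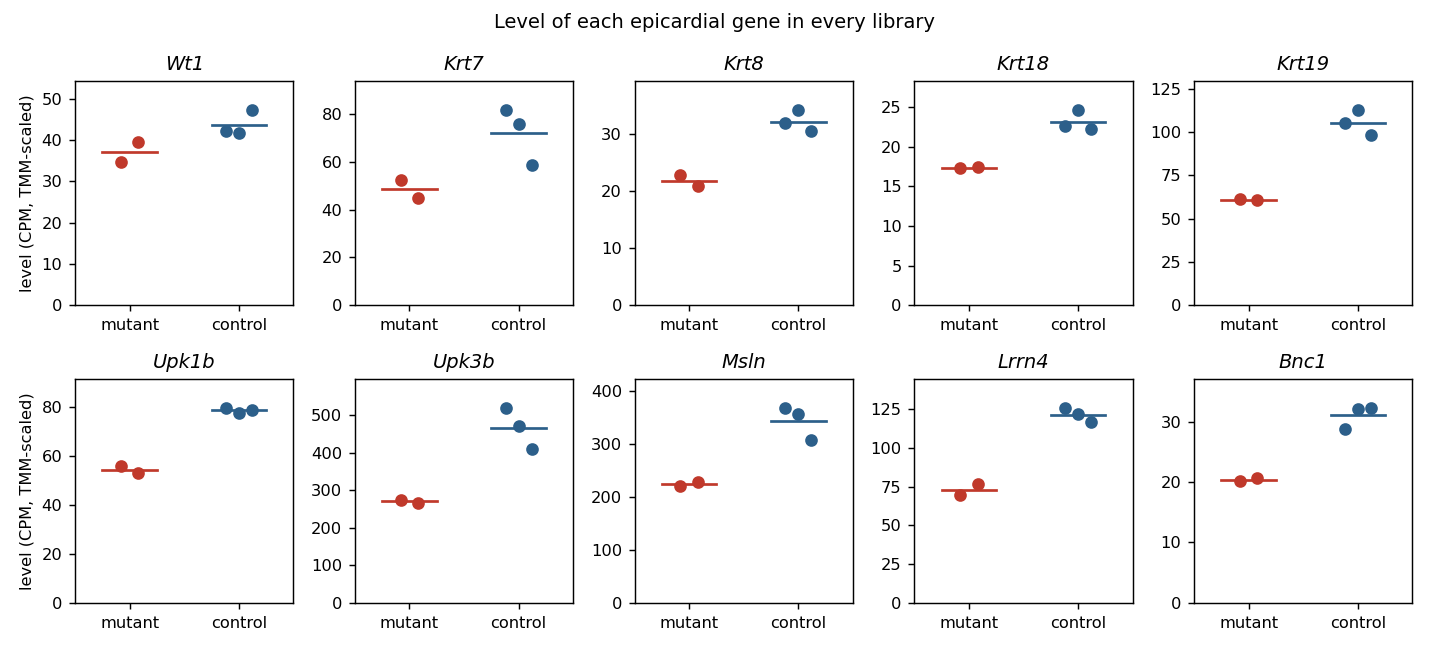
Level of each of the 10 epicardial genes in CPM (linear axes from 0), with 1 point for each of 2 mutant and 3 control libraries and a line at each group mean. In all 10 panels both mutant points lie below the 3 control points; the groups come closest for Wt1 and Krt7.

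The uroplakins are tetraspanin and partner proteins of the apical membrane. Upk3b, the best represented of the 10 genes, stood at 276 and 266 CPM in mutants 5 and 7, against 519.6, 470.3 and 411.5 CPM in controls 2, 4 and 6. The mutant libraries lay close together and the controls were spread, with control 6 the lowest of them. Upk3b fell by 0.79 ± 0.10 (SE) on the log2 scale (adjusted p = 0.0036, edgeR). Upk1b, a tetraspanin gene, stood at 55.7 and 52.9 CPM in the mutants, against 79.4, 77.4 and 78.5 CPM in the controls. It fell by 0.53 ± 0.06 (adjusted p = 0.0024, edgeR), and the spread within each group was small beside the gap between them. The other uroplakin genes were near the limit of detection: Upk1a had at most 0.63 CPM in any library, and Upk2 and Upk3a at most 0.15 CPM. Upk1a, Upk2 and Upk3a were therefore barely represented in either group, and the result concerned Upk3b and Upk1b.

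Of the mesothelial surface protein genes, Msln encodes mesothelin, a membrane-anchored glycoprotein. Its level was 220.5 and 228 CPM in mutants 5 and 7, against 367, 356 and 307 CPM in controls 2, 4 and 6. Msln fell by 0.62 ± 0.09 (SE) on the log2 scale (adjusted p = 0.0060, edgeR), and as for Upk3b control 6 was the lowest control. Lrrn4, a leucine-rich repeat membrane protein gene used as a mesothelial marker, stood at 69.3 and 76.5 CPM in the mutants, against 126, 122 and 117 CPM in the controls. It fell by 0.74 ± 0.07 (adjusted p = 9.6e-04, edgeR).

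The keratins form filaments as pairs of a type II chain (Krt7, Krt8) and a type I chain (Krt18, Krt19). Krt19 changed most of the 4, with 61.5 and 60.5 CPM in mutants 5 and 7, against 105, 112.5 and 98.3 CPM in controls 2, 4 and 6. Its fall of 0.79 ± 0.07 (SE) on the log2 scale had an adjusted p of 9.3e-04 in edgeR. Krt8 stood at 22.7 and 20.8 CPM in the mutants, against 31.8, 34.1 and 30.4 CPM in the controls, and fell by 0.56 ± 0.09 (adjusted p = 0.0075, edgeR). Krt18, the usual partner of Krt8, stood at 17.3 and 17.4 CPM in the mutants, against 22.6, 24.6 and 22.2 CPM in the controls. Krt18 fell by 0.41 ± 0.08 (adjusted p = 0.022, edgeR), the smallest fall among the 8 genes that passed. In edgeR it no longer passed with control 2, control 4 or mutant 7 left out (adjusted p = 0.067, 0.091 and 0.052).

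Krt7 was the most variable keratin among the controls. Mutants 5 and 7 had 52.6 and 45.0 CPM, against 81.7, 76.0 and 58.6 CPM in controls 2, 4 and 6, so control 6 lay nearer to mutant 5 than to the other controls. Its log2 fold change was -0.56 ± 0.15 (SE), a size close to that of Krt8 with a larger error (adjusted p = 0.092, edgeR). Krt7 passed when control 6 was left out (-0.69, adjusted p = 0.013, edgeR) and in DESeq2 (adjusted p = 0.0033). The antisense gene Gm671 overlaps 77 exonic bases of Krt7 in GENCODE vM21, and the noncoding gene Gm36026 overlaps 101 of Krt8; the labels do not say how counting treated strand, so reads there could not be assigned.

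Of the 2 transcription factor genes, Bnc1 passed and Wt1 did not; the difference between them was not tested. Bnc1, which encodes the zinc finger protein basonuclin 1, stood at 20.2 and 20.6 CPM in mutants 5 and 7, against 28.7, 32.2 and 32.3 CPM in controls 2, 4 and 6. Bnc1 fell by 0.61 ± 0.08 (SE, log2 scale; adjusted p = 0.0051, edgeR). Wt1, the zinc finger factor gene named for Wilms tumour, stood at 34.7 and 39.7 CPM in the mutants, against 42.2, 41.7 and 47.2 CPM in the controls. Its groups did not overlap, but mutant 7 lay only just below control 4. The log2 fold change of Wt1 was -0.23 ± 0.09 (adjusted p = 0.19, edgeR), the smallest difference of the 10 genes.

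**Figure D2:**
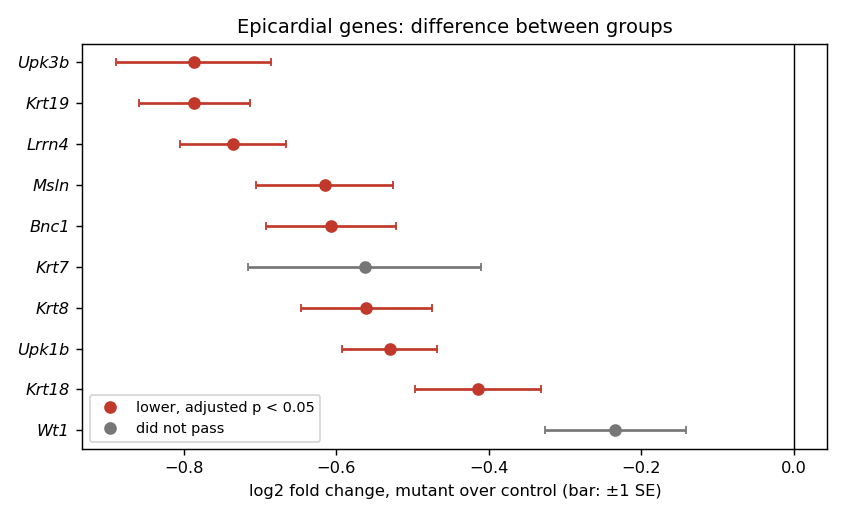
Log2 fold change of each of the 10 genes, mutant over control (x axis; bars show 1 SE on each side), ordered by size. The 8 genes in red passed an adjusted p under 0.05 and lie between -0.79 and -0.41; Krt7 and Wt1, in grey, did not pass.

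The make-up of the summed epicardial counts was compared between groups, since it does not depend on the scaling of the libraries. Wt1 took 4.18% and 4.79% of the summed counts of the 10 genes in mutants 5 and 7, against 3.01%, 3.10% and 3.93% in controls 2, 4 and 6. Krt18 took 2.09% and 2.10% in the mutants, against 1.61%, 1.82% and 1.84% in the controls. Msln took 26.6% and 27.5% in the mutants, against 26.2%, 26.4% and 25.5% in the controls. All 3 genes took a larger share in each mutant library than in any control, Msln by a narrow margin. In the other direction, Upk3b took 33.2% and 32.1% in the mutants, against 37.0%, 34.9% and 34.2% in the controls, and Krt19 took 7.40% and 7.32%, against 7.47%, 8.35% and 8.17%. The groups overlapped for the shares of Krt7, Krt8, Upk1b, Lrrn4 and Bnc1. The shares of a library add up to the whole, so a lower share of 1 gene raises those of others. For such a share the smallest p that an exact permutation test (two-sided) can give here is 0.1, so these shares are given as a description.

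Ratios between genes in the same library do not depend on the scaling either. Krt8 had 1.31 and 1.20 counts for each count of Krt18 in mutants 5 and 7, against 1.41, 1.39 and 1.37 in controls 2, 4 and 6. Krt18 had 0.282 and 0.287 counts for each of Krt19 in the mutants, against 0.215, 0.219 and 0.226 in the controls. Wt1 had 0.50 and 0.52 counts for each of Lrrn4 in the mutants, against 0.336, 0.341 and 0.405 in the controls. The ratio of Lrrn4 to Krt19, by contrast, was 1.13 and 1.26 in the mutants and 1.20, 1.09 and 1.19 in the controls, so these groups overlapped. These pairs were chosen after the values were seen.

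**Figure D3:**
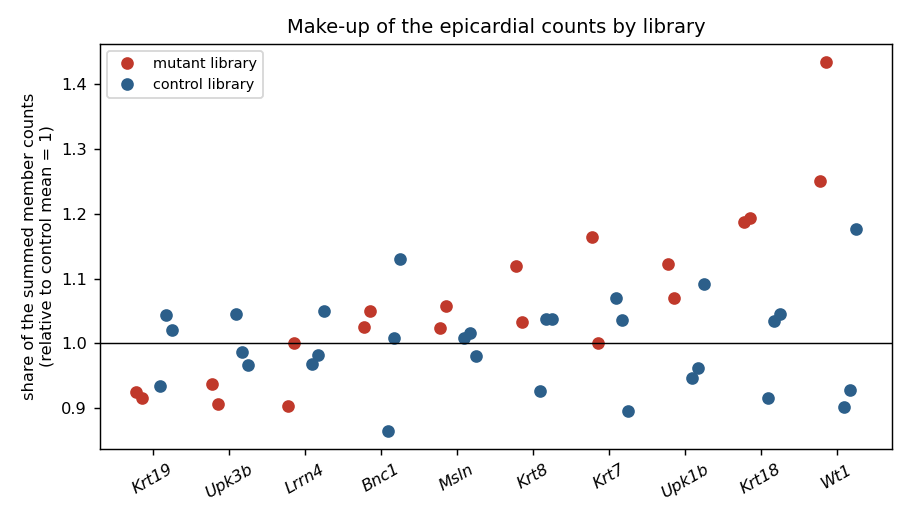
Share of each gene in the summed counts of the 10 genes, divided by the mean control share (y axis), with 1 point per library and genes ordered by the mean mutant share relative to control. Wt1 and Krt18, at the right, and Msln, near the middle, have both mutant libraries above all controls; Krt19 and Upk3b, at the left, have both below.

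Levels can be compared between genes only per length. Per kilobase of the longest coding sequence in GENCODE vM21, Upk3b had a mean of 327 CPM in mutant and 564 CPM in control atria, followed by Msln with 119 and 182, Upk1b with 69.6 and 101, and Krt19 with 50.4 and 87.0. Lrrn4 and Krt7 followed with 33.2 and 35.6 CPM per kilobase in mutant atria, against 55.2 and 52.6 in control atria; their values overlapped in each group. Wt1, with 24.0 and 28.2 CPM per kilobase, stood above Krt8 (14.8 and 21.8) and Krt18 (13.7 and 18.2) in every library. Bnc1 was lowest, at 6.86 CPM per kilobase in mutant and 10.5 in control atria. In the authors' deposited table, Wt1 has the lowest RPKM of the 10 genes (3.06 in mutant and 3.67 in control atria). The gene length in that table is 11062 bases for Wt1, whereas the longest Wt1 transcript in GENCODE vM21 has 3090 bases. The longest coding sequences of Wt1 and Upk3b have 1551 and 828 bases, whereas their longest transcripts have 3090 and 3530. The rank of Wt1 among these genes therefore depends on the length used, and that of Upk3b may do so too. Ranks per kilobase of transcript were not computed. By the authors' deposited table, 9 of the 10 genes have an adjusted p under 0.05, Krt7 among them with 0.042; Wt1 does not, with a log2 ratio of -0.26 and an adjusted p of 0.37.

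By the deposited table (mm9), whose listed span for these 4 genes is within 3 bases of the coding span in GENCODE vM21, Upk3b lies on chromosome 5 (136514672 to 136519964, plus strand) and Lrrn4 on chromosome 2 (132695436 to 132705631, minus strand). The partners Krt8 (chromosome 15, 101827371 to 101834670, minus strand) and Krt18 (101858710 to 101862392, plus strand) are neighbours that point away from each other, 24039 bases apart. The start regions of these 4 genes are shown because 2 are among the largest falls and 2 encode a filament pair whose genes sit side by side. Each covers 250 bases before to 50 bases after the RefSeq start (GRCm38.p6), written 5′ to 3′ on the gene's strand. Capitals mark matches on either strand to TNAAGTG (the Nkx2-5 element), TATAAA (the letters of a TATA box) or GGAATG (the TEAD element). In Krt8 the TATAAA matches on the 2 strands overlap. They begin at offsets -3 and -1 from the RefSeq start, and whether they act as a TATA box was not tested.
Upk3b (chr5:136038246-136038545, plus strand): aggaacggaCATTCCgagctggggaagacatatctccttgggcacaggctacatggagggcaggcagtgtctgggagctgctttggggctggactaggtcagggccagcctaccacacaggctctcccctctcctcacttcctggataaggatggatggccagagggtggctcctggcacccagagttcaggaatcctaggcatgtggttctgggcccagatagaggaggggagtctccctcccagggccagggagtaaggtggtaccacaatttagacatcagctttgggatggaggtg
Lrrn4 (chr2:132880813-132881112, minus strand): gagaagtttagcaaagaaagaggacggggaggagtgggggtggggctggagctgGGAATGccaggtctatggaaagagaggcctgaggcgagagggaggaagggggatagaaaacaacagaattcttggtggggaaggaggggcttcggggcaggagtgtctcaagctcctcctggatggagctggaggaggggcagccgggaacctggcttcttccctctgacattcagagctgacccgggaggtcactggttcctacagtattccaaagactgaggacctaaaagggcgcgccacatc
Krt8 (chr15:102004293-102004592, minus strand): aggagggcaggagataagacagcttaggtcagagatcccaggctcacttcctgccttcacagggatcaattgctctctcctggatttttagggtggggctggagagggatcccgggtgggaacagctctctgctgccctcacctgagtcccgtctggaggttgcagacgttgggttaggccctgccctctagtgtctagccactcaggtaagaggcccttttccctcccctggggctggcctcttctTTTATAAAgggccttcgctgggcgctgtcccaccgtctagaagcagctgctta
Krt18 (chr15:102027966-102028265, plus strand): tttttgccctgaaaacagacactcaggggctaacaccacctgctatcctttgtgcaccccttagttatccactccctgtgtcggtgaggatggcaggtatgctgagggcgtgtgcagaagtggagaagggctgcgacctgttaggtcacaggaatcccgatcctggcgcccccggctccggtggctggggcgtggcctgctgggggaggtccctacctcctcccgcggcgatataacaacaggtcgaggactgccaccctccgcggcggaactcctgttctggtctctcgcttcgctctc

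RefSeq start regions were matched for 6 of the 10 genes (these 4, Krt7 and Bnc1). TNAAGTG had no match in the 6 windows and occurs in 11.5% of all 32851 windows of the table. GGAATG, found in the windows of Upk3b and Lrrn4, occurs in 14.7% of all windows, and TATAAA, found in that of Krt8, in 13.6%. The 6 windows differed widely in base composition, from 58.0% GC with 6 CpG in Krt8 and 58.7% GC with 2 CpG in Upk3b to 83.3% GC with 50 CpG in Bnc1; the median window in the table had 52.7% GC and 7 CpG. Genes with CpG-poor and CpG-rich starts were thus both among the falls. A match is a description of these letters and says nothing of binding.

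Other genes of the epicardium and of mesothelium, from a list of 18, mostly fell as well. This list too was chosen with earlier results of these data known. Of 17 tested, 10 fell, 7 did not pass and 16 had a negative log2 fold change, with a median of -0.57. Across all tested genes, 3.57% were called lower. Both mutant libraries lay below all controls for 15 of the 17, as for 19.2% of all tested genes. The list summed to 650 and 633 CPM in mutants 5 and 7, against 917, 889 and 895 CPM in controls 2, 4 and 6. The count of 10 was between 7 and 12 when 1 library was left out.

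The largest falls of this list exceeded those of the 10 genes. Dmkn, the gene of the secreted epithelial protein dermokine, stood at 9.20 and 7.19 CPM in mutants 5 and 7, against 24.3, 18.3 and 25.2 CPM in controls 2, 4 and 6. Dmkn fell by 1.46 ± 0.17 (SE, log2 scale; adjusted p = 0.0042, edgeR). Anxa8, an annexin gene, stood at 9.56 and 10.6 CPM in the mutants, against 25.9, 24.9 and 24.5 CPM in the controls, and fell by 1.32 ± 0.09 (adjusted p = 2.5e-04, edgeR). Both had all mutant values below 11 CPM and all control values above 18 CPM. Nkain4, a sodium pump interacting protein gene, fell by 0.76 ± 0.08. The polarity gene Crb2 fell by 0.68 ± 0.08, and Ezr, which encodes the membrane linker ezrin, fell by 0.63 ± 0.08.

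Aldh1a2, the retinoic acid synthesis enzyme gene of the embryonic epicardium, stood at 52.2 and 57.4 CPM in mutants 5 and 7, against 77.8, 85.9 and 79.6 CPM in controls 2, 4 and 6, a fall of 0.57 ± 0.07 (SE) on the log2 scale (adjusted p = 0.0040, edgeR). The membrane glycoprotein gene Gpm6a fell by 0.44 ± 0.07. The tight junction gene Cldn15 fell by 0.85 ± 0.14, the mucin gene Muc16 fell by 0.54 ± 0.12 and the semaphorin gene Sema3d fell by 0.40 ± 0.08. These last 3 calls did not hold without some single libraries. Cldn15 no longer passed edgeR with any 1 control left out (adjusted p up to 0.067), Muc16 with any 1 library other than mutant 5 left out (up to 0.13), and Sema3d with control 2, control 6 or mutant 7 left out (up to 0.080).

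Of the transcription factor genes of the epicardium and its derivatives on this list, Tbx18, Tcf21, Scx and Gata5 did not pass. Tbx18 stood at 41.5 and 64.7 CPM in mutants 5 and 7, against 52.9, 58.8 and 50.2 CPM in controls 2, 4 and 6, so the mutants enclosed the controls (log2 fold change -0.02 ± 0.19 SE, adjusted p = 0.97, edgeR). Tcf21, a factor gene of epicardium and fibroblasts, had a log2 fold change of -0.15 ± 0.07 (adjusted p = 0.27, edgeR), and Scx one of -0.26 ± 0.20 (adjusted p = 0.53, edgeR). Gata5 was the single gene of the list with both mutants above all controls (18.6% of all tested genes), at 22.3 and 23.7 CPM against 17.7, 20.6 and 18.8 CPM, and it did not pass (0.27 ± 0.09, adjusted p = 0.12, edgeR). With Wt1, 5 such factor genes thus had differences between -0.26 and 0.27, whereas Bnc1 fell as above and its relative Bnc2 had -0.61 ± 0.25 without passing (adjusted p = 0.20, edgeR). Whether these genes differ as a class from the surface genes was not tested. The remaining genes that did not pass were Rspo1 (-0.61 ± 0.16) and Pdpn (-0.28 ± 0.09), and Calb2 was too low to test.

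**Figure D4:**
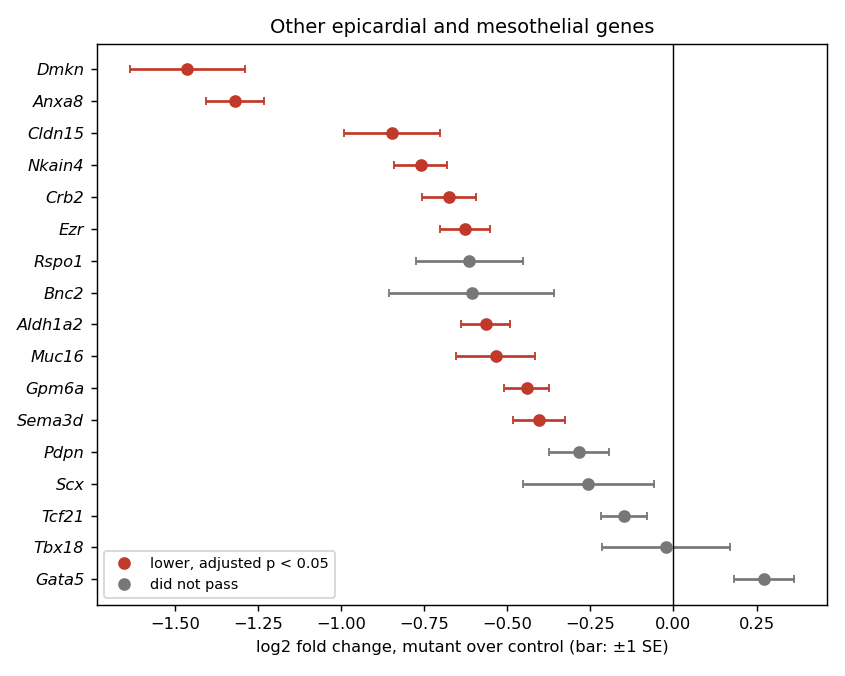
Log2 fold change of the 17 tested genes of the list of other epicardial and mesothelial genes, mutant over control (x axis; bars show 1 SE on each side). The 10 genes in red passed and lie between -1.46 and -0.40; the 7 in grey did not, and the factor genes Tbx18, Tcf21, Scx and Gata5 are the closest to 0 together with Pdpn.

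Most keratin genes outside the 4 were low, with Krt14 the exception. Of 15 listed, 8 passed the low-count filter, 2 fell and 6 did not pass, and all 8 had negative log2 fold changes (median -0.39). The share called lower among all tested genes was 3.57%. Krt14, a keratin of stratified epithelium, stood at 17.7 and 20.4 CPM in mutants 5 and 7, against 24.5, 30.7 and 29.7 CPM in controls 2, 4 and 6; Krt14 fell by 0.57 ± 0.12 (SE, log2 scale; adjusted p = 0.024, edgeR). Its partner Krt5 was barely counted, at no more than 0.017 CPM in any library. Krt222, a keratin-like gene, fell by 0.43 ± 0.10 (adjusted p = 0.045, edgeR). Krt14 no longer passed edgeR with control 4, control 6 or mutant 5 left out (adjusted p up to 0.090), nor Krt222 with any 1 library other than mutant 5 left out (up to 0.17).

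Markers of the other cell types of the atrium mostly did not pass, though most fibroblast genes were lower in mutant atria. Of 10 fibroblast genes, 3 fell, 1 rose and 6 did not pass. Across all tested genes, 3.57% were called lower and 3.02% higher. Log2 fold changes were negative for 8 of the 10 (median -0.39). Both mutants lay below all controls for 6 of the 10, as for 19.2% of all tested genes. The list summed to 8728 and 8892 CPM in mutants 5 and 7, against 12440, 11010 and 10920 CPM in controls 2, 4 and 6. The matrix proteoglycan gene Lum fell by 0.92 ± 0.09 (SE), and Dcn, of the same kind, fell by 0.80 ± 0.08. Both falls were larger than that of any of the 10 epicardial genes, Dcn by a narrow margin. Col1a2 (-0.37), Col1a1 (-0.42) and Dpt (-0.58) did not pass (adjusted p = 0.0513, 0.0615 and 0.0695, edgeR). The collagen gene Col3a1 fell by 0.42 ± 0.09, which no longer passed edgeR with any 1 library other than mutant 5 left out (adjusted p up to 0.12). Thy1 rose by 0.65 ± 0.14, and it no longer passed edgeR with control 2, control 6 or mutant 5 left out (adjusted p up to 0.097). Of 6 smooth muscle genes, 1 rose and 5 did not pass, and the list summed to 2215 and 1773 CPM in the mutants, against 777, 900 and 767 CPM in the controls. That rise was of Acta2, the smooth muscle actin gene, at 1693 and 1244 CPM in the mutants, against 435, 432 and 366 CPM in the controls (log2 fold change 1.84 ± 0.14, adjusted p = 9.3e-04, edgeR). Myh11 had the largest log2 fold change of the 6, 2.285 ± 0.67, without passing (adjusted p = 0.19, edgeR). It stood at 29.7 and 27.7 CPM in the mutants, against 6.51, 9.14 and 2.03 CPM in the controls. Mylk did not pass either (0.56 ± 0.14, adjusted p = 0.055, edgeR). Without Acta2 the other 5 genes summed to 522 and 529 CPM in the mutants, against 342, 468 and 401 CPM in the controls. Both mutants lay above all controls for 4 of the 6 smooth muscle genes, as for 18.6% of all tested genes. The 6 had a median log2 fold change of 0.53, and none was negative. None of these 6 and none of the 7 endothelial genes was called lower in edgeR or in DESeq2. In edgeR at an unadjusted p under 0.05, Acta2, Myh11, Mylk, Tie1, Pecam1, Cdh5 and Emcn were higher and none was lower.

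Of the 7 endothelial genes 1 rose, where 3.02% of all tested genes were called higher. That gene was Tie1, which rose by 0.33 ± 0.08 (SE) on the log2 scale (adjusted p = 0.040, edgeR). It no longer passed edgeR with scaling by library totals alone or with any 1 library other than mutant 5 left out (adjusted p up to 0.17). The 7 genes had a median log2 fold change of 0.22, and both mutants lay above all controls for 5 of them. That was so for 18.6% of all tested genes. The endothelial list summed to 1732 and 2058 CPM in mutants 5 and 7, against 1556, 1608 and 1732 CPM in controls 2, 4 and 6, so the groups touched. The 7 atrial myocyte genes had a median log2 fold change of -0.01. Of them 1 passed, Nppa, the natriuretic peptide gene, which fell by 2.58 ± 0.18. The share called lower over all tested genes was 3.57%. The sum of the 7 was 61520 and 56670 CPM in the mutants, against 61600, 59260 and 59080 CPM in the controls, and these groups overlapped. That sum included Nppa, at 848.5 and 1194 CPM in the mutants, against 6207, 6769 and 5281 CPM in the controls. A sum without Nppa was not computed. Actc1 and Myh6 had both mutants above all controls without passing, and Sln had both below without passing. The part of these other cell types in the lower epicardial levels was not tested.

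**Figure D5:**
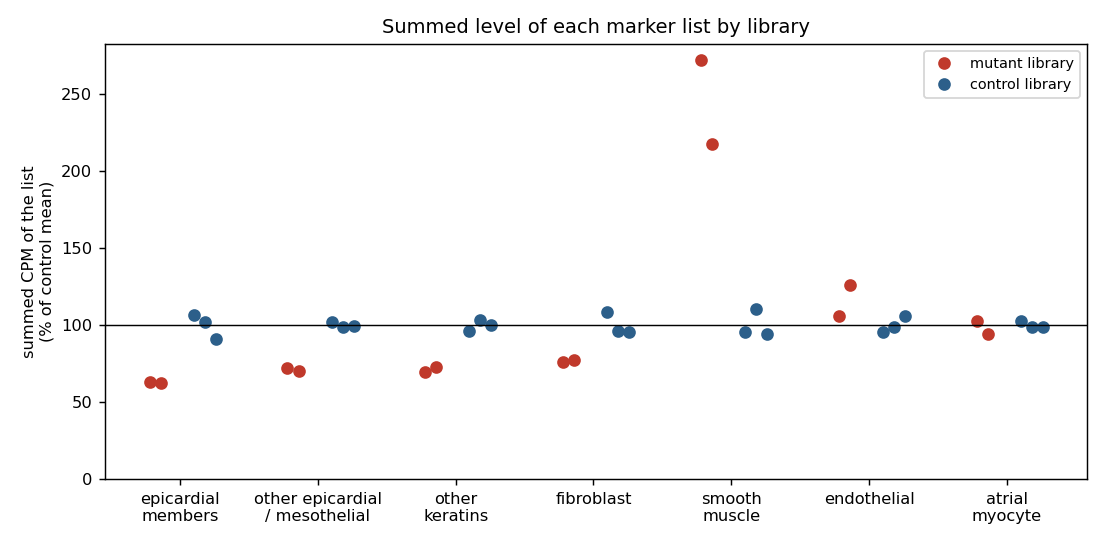
Summed CPM of each list in each library as a percentage of the mean of the 3 control libraries (y axis from 0; lists under 10 CPM are not drawn). The epicardial genes, the other epicardial and mesothelial genes, the other keratins and the fibroblast genes lie below the control mean in both mutant libraries. The smooth muscle sum lies above it at 245% on average (130% without Acta2, a sum chosen after the values were seen). The endothelial sum also lies above it, at 116% on average, with the groups overlapping. Atrial myocyte genes lie near it, with Nppa included.

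The genes whose pattern over the 5 libraries was most like the mean profile of the 10 were sought among 13182 other genes whose mean log2 CPM was 1 or more. Likeness was the root mean square difference of log2(CPM + 0.5), centred over the libraries, from that mean profile. The 5 nearest were Adamtsl4 (0.024), Tom1 (0.027), Mgmt (0.033), Aplp1 (0.038) and Rhpn2 (0.038). Adamtsl4, a secreted matrix protein gene, stood at 14.9 and 15.2 CPM in mutants 5 and 7, against 22.8, 22.7 and 20.8 CPM in controls 2, 4 and 6. Of the 10 genes themselves, Krt8 was nearest to their mean (0.047), followed by Upk1b (0.054) and Msln (0.055), and Wt1 was farthest (0.21). Placed among the 13182 other genes, Krt8 would rank 11, Upk1b and Msln each 16, and Wt1 1540. Some other genes thus lay nearer to that mean than any of the 10, and the profile was not particular to them. The measure covers 5 libraries in 2 groups and is a description.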

How the data were processed

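PolyA RNA of atrial tissue was sequenced in 5 libraries, made with a TruSeq kit from Trizol and RNeasy extracts, per the labels' protocols. Raw read counts for each gene in each library were deposited. HTSeq 0.5.4p3, TopHat2 2.0.4 and DESeq are named, with build mm9, per the submitters' processing notes. Strand use in counting was not stated. The authors deposited RPKM values pooled to 1 value per group, a log2 ratio of mutant over control, and a p-value and adjusted p-value per gene. The no_feature and ambiguous entries, 3.97 to 6.03% and 2.31 to 3.18% of all counts, were left out of totals and tests. The ambiguous share was 2.45% and 2.31% in mutants 5 and 7, against 3.09%, 3.18% and 2.87% in controls 2, 4 and 6.

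The test was run in edgeR 4.0.16 (R 4.3.3): filterByExpr with its defaults (minimum count 10, minimum total 15), TMM scaling, and the two-sided robust quasi-likelihood test of 2 mutant against 3 control libraries with no covariate. P-values were adjusted over all 17835 tested genes (threshold 0.05); dividing the log2 fold change by the root of its F statistic gave the SE. The fit was tested on simulated data. Alternatives were other scaling and filters, DESeq2 1.42.0, limma-voom (limma 3.58.1) and leaving out each library; alternatives for single genes of the other lists were added after seeing the data. GENCODE vM21 (GRCm38) gave lengths and overlaps, with none of its coordinates printed, and RefSeq (GRCm38.p6) gave start regions.

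The genes and lists were chosen with earlier results of these data known, by name. Named genes are the 10, Nkx2-5, each called gene of the other lists with others of small p, and the 5 nearest in pattern; not all are given, and some other list genes are named to complete their list.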

Additional observations from a re-analysis of the deposited data

How the results depend on the processing

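All 10 epicardial genes kept a negative log2 fold change under the 11 alternatives run for each. The count that fell was 7 to 9 with 1 library left out, 9 with DESeq2 and 8 with limma-voom; Krt8, Krt19, Upk1b, Upk3b, Msln, Lrrn4 and Bnc1 passed in all 11, and Wt1 in none (adjusted p 0.099 to 0.41). The median of the 10 genes ranged from -0.64 to -0.57 with 1 library left out and was -0.62 with library totals alone.

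Over all tested genes, 636 were lower and 538 higher. DESeq2 gave 1044 and 960, and a threshold of 0.01 gave 234 and 157. Leaving out 1 library gave 306 to 804 lower and 203 to 910 higher. Among the other lists, the 3 fibroblast falls became 5 with library totals alone, 5 with no filter and 6 with DESeq2, and the 1 fibroblast rise ranged from 0 to 1 with 1 library left out. The 1 smooth muscle rise became 2 with no filter and 3 with DESeq2, and ranged from 1 to 2 with 1 library left out. The 1 endothelial rise became 0 with library totals alone and 2 with DESeq2, and ranged from 0 to 3 with 1 library left out. No gene of the lung, thymus and other epithelial list fell in the edgeR fit, against 1 with no filter and 1 with DESeq2. The 2 falls among other keratins ranged from 0 to 2 with 1 library left out. The cause of these shifts was not tested. No paired analysis was possible because the groups share no replicate number. Each of the 10 genes had at least 1185 counts in every library, and the number of libraries limits the precision.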
